A study of Rattus norvegicus with 16 samples.

Results

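The untreated group consisted of the samples titled as controls, 3 of the 15 samples of the study, measured on 4 of its 16 arrays because replicate 1 was hybridised a second time. They were primary cultures of hippocampal neurons from embryonic day 18 Sprague-Dawley rats, grown in Neurobasal medium with 5% B27, a serum-free neuronal supplement. Before hydroxyurea was given to the treated cultures, that medium was exchanged for one whose B27 lacked antioxidants. The other 12 samples received 5 µM hydroxyurea, an inhibitor of ribonucleotide reductase, for 2, 6, 12 or 24 h, with 3 replicates each, and they are used below only to see whether differences among the untreated replicates recur. All 5 groups share the strain, the embryonic age and the culture method. The labels give 6 to 9 days in culture in one field and at most 8 in another, give no time that untreated cultures had in the exchanged medium, and name hippocampal tissue rather than culture in the extraction protocol. Nothing in them says that replicates came from separate cultures, so the spread given here may be partly technical. The question was which genes these cultures expressed at baseline, which cell types their markers point to, and how closely the 3 samples and the repeated array agreed.

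The embryonic hippocampus at this age supplies mostly pyramidal neurons of the hippocampus proper, with a minority of GABAergic interneurons that migrated in from the ventral forebrain, and precursors that go on to form astrocytes and oligodendrocytes. In serum-free B27 medium neurons extend axons and dendrites within days and assemble synapses over the following weeks, while glia are held back but not removed unless a drug that blocks division is added. A neuron that is maturing exchanges growth cone and microtubule genes for genes of synaptic transmission, and its GABA response turns from depolarising to inhibitory as the chloride exporter Slc12a5 takes over from the importer Slc12a2.

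Signals are given as levels: log2 of the processed spot signal minus the 75th percentile of that array, so that 0 is the signal that separates the brightest spots from the lower 75% and 1 unit is a factor of 2. A gene is represented by its brightest probe, and the mean ± SD is over 3 samples (n = 3 throughout), with the arrays of replicate 1 averaged first. The signal percentile places a gene among the 15715 genes that could be named. Brightness also depends on the probe: among the 2772 genes with several probes, the brightest and the dimmest differed by a median of 2.23 log2 units, and in 73.3% of them by over 2-fold. Percentiles therefore rank signals, not transcripts, and a brighter gene is not read as having more transcript than a dimmer one. In bulk RNA, fewer cells of a type and less RNA per cell cannot be told apart.

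Between 66.7% and 70.4% of the 30367 probes were well above background on each untreated array, against 64.6% to 69.7% on the 12 treated arrays, and no spot was saturated. Of the named genes, 10769 (68.5%) were well above background on all 4 arrays, 936 (5.96%) on some and 4010 (25.5%) on none. The spots of a probe had a median coefficient of variation between 3.41% and 4.24% on 3 untreated arrays, but 15.5% on the first array of replicate 1. That array also had a patch of dim spots, described with the agreement of the arrays below. Values on each array are given for some of the named genes most touched by the patch. On all 4 arrays 19629 probes were well above background, and 20267 on the 3 without it. Among the treated samples this value was 23.1% for 12 h replicate 3. At 24 h, the deposited scores labelled replicate 1 and replicate 3 were those of the other one's scanner file (r = 0.999996, against 0.991 with their own), so which of these samples is which is not settled.

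Neuronal markers were bright in every untreated sample. Tubb3, the neuronal beta tubulin, had levels of 5.24 and 5.33 on the arrays of replicate 1, 5.56 in replicate 2 and 5.64 in replicate 3 (mean 5.50 ± 0.19, percentile 99.1). Map2, which binds microtubules in dendrites, had levels of 1.52, 1.47, 1.66 and 1.68 in the same order (mean 1.61 ± 0.10, percentile 87.3). The SDs over the 3 samples were 0.19 and 0.10, against a median SD of 0.14 over the named genes well above background on all 4 arrays. Both markers ranked among the brighter genes in all 3 samples.

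Markers of both main transmitters were measured on every array. Gad1, which makes GABA, had levels of 1.21, 1.03, 1.13 and 1.51 on the 4 arrays in that order (mean 1.25 ± 0.22, percentile 85.0). Slc17a7, the vesicular glutamate transporter of mature pyramidal cells, had levels of -4.04, -4.29, -4.11 and -3.68 (mean -3.98 ± 0.27, percentile 44.1). Replicate 3 was the highest of the 3 samples for both genes. A second Gad1 probe had a mean of only -5.78, although it was well above background on all 4 arrays. Slc17a6, the other vesicular glutamate transporter, which young neurons use, had levels of -0.43, -0.47 and -0.30 in replicates 1, 2 and 3 (percentile 72).

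Glial markers were present beside the neuronal ones. Gfap, the intermediate filament of astrocytes, had levels of -1.65, -1.62, -1.23 and -0.79 (mean -1.22 ± 0.42, percentile 65.1). The repeated arrays of replicate 1 nearly coincided for Gfap, while replicate 3 was highest. Slc1a2, the glutamate transporter of mature astrocytes, had levels of -1.91, -0.43, -0.70 and -0.57 (mean -0.81 ± 0.32, percentile 68.6), of which the first array was the low one, and the mean was -0.57 with the repeat array alone. Its second probe gave -0.86, -0.75, -0.98 and -0.92, without that gap. Olig2, a transcription factor of oligodendrocyte precursors, had levels of 3.47, 3.34, 3.04 and 3.07 (mean 3.17 ± 0.20, percentile 95.3), and its second probe a mean of -5.78. Replicate 1 was the highest sample for Olig2 on both of its arrays. Aif1, the calcium-binding protein of microglia, was dim but well above background on every array with its brighter probe, at -4.53, -4.78, -4.37 and -4.71 (mean -4.58 ± 0.18, percentile 40.3), and its second probe was well above background on 2 of 4 arrays.

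**Figure D1:**
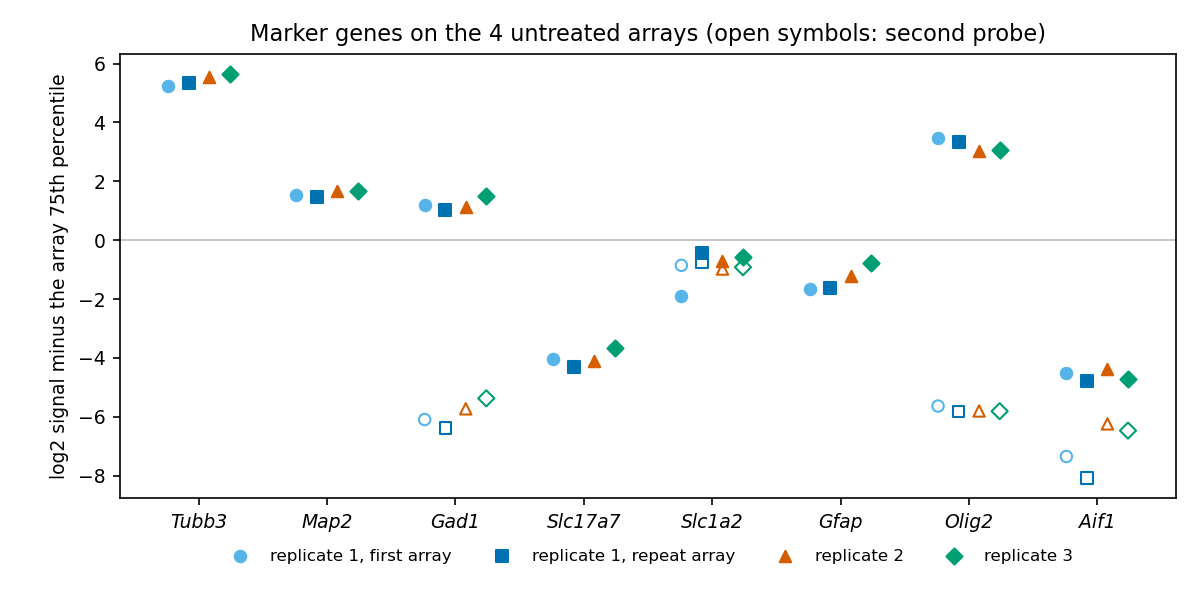
Level (log2 signal minus the array 75th percentile, vertical axis) of the 8 marker genes on the 4 untreated arrays, where each point is 1 array, filled for the brightest probe and open for a second probe. Tubb3 lay between 5.24 and 5.64 on all arrays, and the open symbols of Gad1, Olig2 and Aif1 lie far below the filled ones.

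Of the 17 measured pan-neuronal genes, all 17 were well above background on the 4 arrays, with a median signal percentile of 87.9 where 50 is the middle of all named genes. The brightest were Uchl1, a neuronal ubiquitin hydrolase (6.69 ± 0.15), Stmn2, a tubulin-binding growth protein (5.69 ± 0.057), and Gap43 of growth cones (5.15 ± 0.16). At the other end stood Syt1, the calcium sensor of transmitter release (-3.01 ± 0.31, percentile 50.7), and Nefh, the neurofilament of mature axons (-4.59 ± 0.19, percentile 40.2).

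Genes of glutamatergic identity were detected in 11 of 13 cases (median percentile 72). Bhlhe22 (3.23 ± 0.15), Neurod6 (2.43 ± 0.04) and Neurod2 (1.62 ± 0.28), transcription factors of pyramidal neurons, lay at percentiles 95.5, 92.1 and 87.4. Tbr1, a factor of early-born cortical neurons, was well above background on only 3 arrays, with levels of -6.46, -6.62 and -6.58 in replicates 1 to 3.

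Of the GABAergic genes, 17 of 18 were well above background on all arrays (median percentile 67.3). Cck (4.84 ± 0.25, percentile 98.5), a neuropeptide that some pyramidal cells also make, and Sst (3.29 ± 0.28, percentile 95.6), the somatostatin of dendrite-targeting interneurons, were the brightest. Slc32a1, which loads GABA into vesicles, was at 2.79, 2.50 and 2.66 in the 3 replicates, and the interneuron factor Lhx6 at a mean of -1.11. Pvalb, which fast-spiking interneurons switch on late, was at percentile 35.3, and Vip was well above background on 3 arrays.

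The astrocyte list had a median percentile of 88.9, with 19 of 20 genes well above background on all arrays. Apoe, the lipid carrier, had levels of 7.21, 7.08 and 6.95 in replicates 1 to 3, and the glutamate transporter Slc1a3 5.48, 5.21 and 4.96. Aldoc, an aldolase of astrocytes, was at 4.65, 6.33, 6.35 and 6.2 on the 4 arrays, low only on the first array of replicate 1. The 3 genes lay at percentiles 99.9, 98.9 and 99.4, with Aldoc at a mean of 6.29 in place of 6.01 with the repeat array alone, and with the arrays of replicate 1 averaged no pair of samples differed by 1 log2 unit for any of them. Aqp4, the astrocyte water channel (2.50 ± 0.49), and Gja1, their gap junction protein (2.20 ± 0.43), lay at percentiles 92.4 and 90.9. Gjb6, a connexin of mature astrocytes, was well above background on 1 array. Taking the median over a gene's probes moved the list's median percentile to 78.8.

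Radial glia and progenitor genes were well above background in 13 of 13 cases (median percentile 75.2). Fabp7, the fatty acid binding protein of radial glia, had levels of 6.42, 6.24 and 5.82, and Sox2, a factor of neural stem cells, 4.46, 4.41 and 4.05. Astrocytes express several genes of this list too, Fabp7, Vim and Sox2 among them. In the oligodendrocyte lineage, 12 of 15 genes passed (median percentile 56.1). The precursor genes Olig1 (4.08 ± 0.10) and Pdgfra (2.56 ± 0.44) were at percentiles 97.5 and 92.8. Of the myelin genes, Mbp was at percentile 77.5 and Mobp at 42.2, Mog passed on 2 arrays, and Cldn11 and Ermn, genes of mature oligodendrocytes, passed on none.

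Microglial genes were dimmer as a group. Of them, 8 of 16 were well above background on all arrays and 4 on none (median percentile 33.6). Cx3cr1, the fractalkine receptor, was at -0.89 ± 0.21 (percentile 67.9). The complement gene C1qb passed on 4 arrays, C1qa on 1 and C1qc on 0, and Itgam, Ptprc and Ctss passed on none. Endothelial genes passed in 4 of 11 cases (median percentile 20.8). Among them, Cldn5, Tek, Tie1 and Flt1, which define the vessel lining, passed on no array. Of the fibroblast and pericyte genes, 12 of 14 passed (median percentile 48.6), with Col1a2, Fn1 and Dcn the brightest and the pericyte genes Rgs5 and Kcnj8 on no array.

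Ttr, the thyroxine carrier secreted by choroid plexus epithelium, was bright (1.62, 3.36 and 2.26 in replicates 1 to 3, percentile 92.0), one of 4 of 7 ependymal and choroid plexus genes that passed (median percentile 43.5), while Kl, Clic6 and Aqp1 passed on no array. Lists of genes typical of other tissues give the scale of signal for genes that such cultures were not labelled to contain. Of the liver genes 2 of 14 passed on all arrays, of the testis genes 2 of 14, of the erythroid genes 3 of 8 and of the Hox genes, which pattern the hindbrain and spinal cord, 1 of 13. Their median percentiles were 19.5, 16.6, 26.2 and 16.0. Muscle genes passed in 11 of 14 cases (median percentile 38.9), the cardiac myosin Myh6 at -0.52, -0.33 and -0.29. Passing the background criterion was therefore not limited to genes of brain cells, and it was read beside the 68.5% of all named genes that passed.

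**Figure D2:**
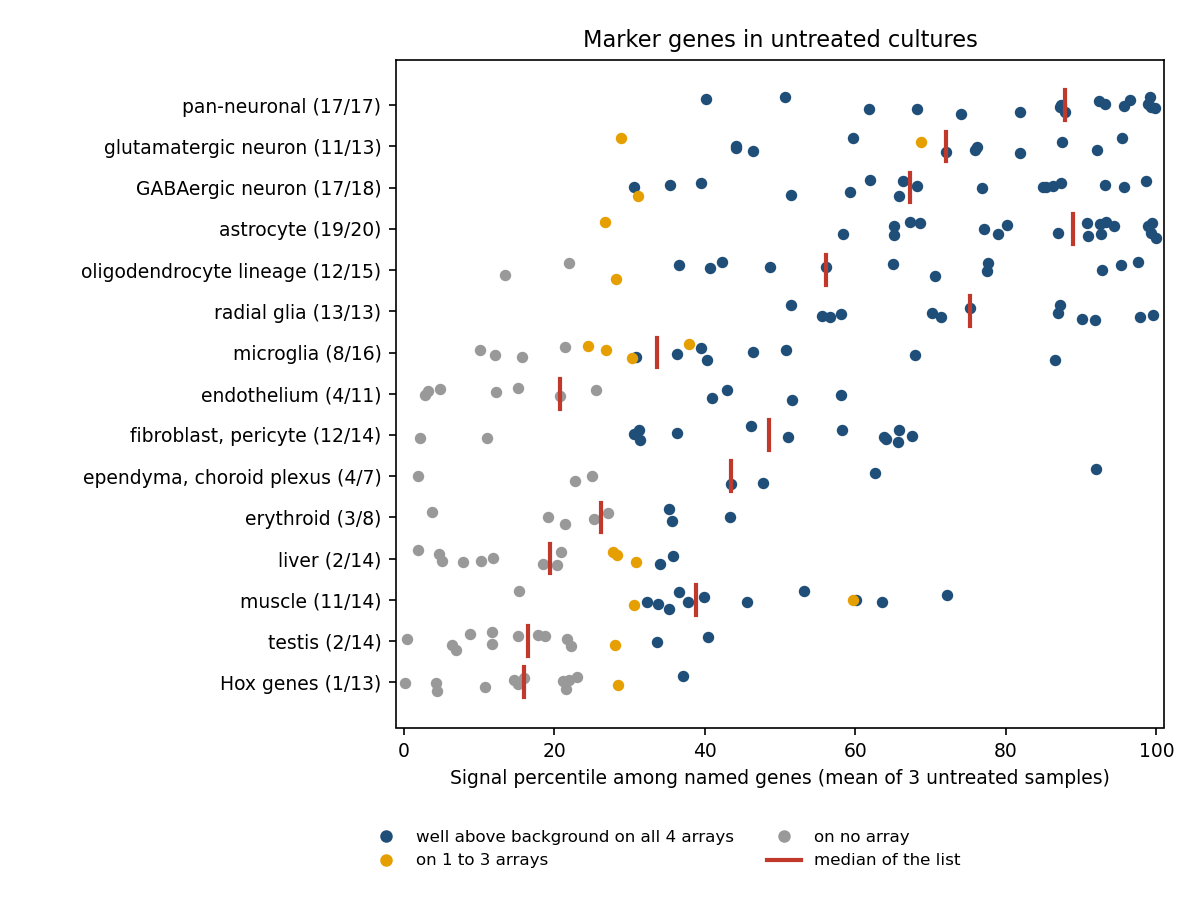
Signal percentile (horizontal axis, mean of 3 untreated samples) of each measured gene of 15 marker lists, where a point is a gene, its colour gives the number of arrays on which it was well above background, the red line is the list's median, and the fraction after each name is members passing on all 4 arrays over members measured. The pan-neuronal and astrocyte medians lie at 87.9 and 88.9, the Hox median at 16.0.

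Forebrain and hippocampal transcription factors were well above background in 17 of 19 cases, with a median percentile of 78.6. Nfix, a nuclear factor of the developing hippocampus, had levels of 5.47, 5.58 and 5.45. Lhx2 (2.66 ± 0.24) and Emx2 (1.53 ± 0.23), which pattern the hippocampal primordium, were at percentiles 93.3 and 86.9. Zbtb20, a factor of CA1 pyramidal cells, was at 60.2. Prox1, the factor of dentate granule cells, was well above background on none of the 4 arrays with its probe.

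Factors of other brain regions passed in 7 of 21 cases (median percentile 19). The midbrain and hindbrain factor Pax5 had the highest percentile of them, 56.7 (-2.22 ± 0.16). Among those that passed on no array were Gbx2, En2, Gata2, Gata3, Foxa2, Fev, Isl1, Otp, Six3, Six6 and Barhl2. Genes of aminergic, cholinergic and glycinergic neurons passed in 6 of 14 cases (median percentile 27.4). Th, the first enzyme of catecholamine synthesis, was at -0.40, -0.32 and -0.28 in the 3 replicates (percentile 72.6), whereas Dbh, Slc6a3, Tph2 and Slc6a4, which complete noradrenaline, dopamine or serotonin identity, passed on none.

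Genes of ionotropic glutamate receptors were set beside the 68.5% of all named genes that passed on the 4 arrays. All 14 measured AMPA and kainate receptor genes, auxiliary subunits included, were well above background on the 4 arrays (median percentile 57.5). Gria2, the subunit that makes AMPA receptors impermeable to calcium, was at 0.25, 0.082 and -0.16 (percentile 75.9), and Gria1 at -3.17, -2.93 and -2.76 (percentile 51.2). NMDA receptor genes passed in 5 of 7 cases (71.4%, near the share of all named genes, median percentile 46.5). Grin2b, the subunit of embryonic receptors, was at -3.90, -3.76 and -3.24 and Grin3a at -0.36, -0.34 and 0.10. Grin2a, the subunit of mature receptors, passed on 3 arrays. Grin2d, a subunit of interneurons, had levels of 3.12, 4.63, 4.73 and 4.62 on the 4 arrays in the order above, of which the first array of replicate 1 was the low one.

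GABA-A receptor genes passed in 13 of 17 cases (median percentile 55.7), among them Gabra2 (-1.29 ± 0.081) and Gabra5 (-2.26 ± 0.07), alpha subunits of young and extrasynaptic receptors. Gabra6, the alpha subunit of cerebellar granule cells, passed on no array. All 10 metabotropic receptor genes passed, with the GABA-B subunits Gabbr1 (3.18 ± 0.092) and Gabbr2 (3.19 ± 0.088) at percentiles 95.3 and 95.4. Of the sodium and HCN channel genes, 13 of 15 passed (median percentile 50.3). Scn2a, the sodium channel of early axons, was at 0.74, 0.56 and 0.76, Scn8a, which follows it later, at -3.13, -2.89 and -2.99, and the skeletal muscle channel Scn4a passed on no array.

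Genes typical of immature neurons were well above background in 19 of 19 cases with a median percentile of 89.0, and those of mature neurons in 15 of 18 cases with 54.9. Tubb2b (7.45 ± 0.11), a tubulin of migrating and growing neurons, and Marcksl1 (5.64 ± 0.17) were among the brightest of the first list, as was Nnat (6.89 ± 0.24). Dcx, the microtubule protein of newborn neurons, was at 0.85, 0.85 and 0.83. In the second list Camk2a, the synaptic kinase (-3.83, -3.61 and -3.47), lay at percentile 46.4. The chloride exporter Slc12a5, also of the second list, was at 2.53, 2.48 and 2.67 (percentile 92.8), and the importer Slc12a2 was at -0.36, -0.46 and -0.54 (percentile 71.7).

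Presynaptic genes passed in 20 of 20 cases (median percentile 74.6), led by Cplx1 (4.03 ± 0.083), a clamp of vesicle fusion, and Stx1a, a fusion protein of the plasma membrane, at 2.43, 4.05, 4.23 and 4.53 on the 4 arrays, where the first array of replicate 1 was again low. Postsynaptic and adhesion genes passed in 19 of 20 cases (median percentile 62.5). Nrxn2 (4.5 ± 0.012), an adhesion molecule that acts on the axonal side, and the scaffold Shank3 (1.86 ± 0.068) were bright, and Dlg4, the scaffold PSD-95, was at -4.31, -4.20 and -4.06 (percentile 42.7).

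The 20 brightest named genes included 7 ribosomal protein genes and 4 tubulin or actin genes, and the 100 brightest included 44 and 9. Tuba1a, the alpha tubulin of growing neurons, ranked first with 7.86, 8.10 and 7.92 in replicates 1 to 3. Rpl41 (7.88 ± 0.061), Actg1 (7.77 ± 0.12) and Rplp0 (7.71 ± 0.058) followed. Fabp5, a fatty acid binding protein (7.54 ± 0.20), the ferritin chain Ftl1 (7.45 ± 0.094), the growth cone protein Basp1 (7.08 ± 0.018), Apoe and the protease inhibitor Cst3 (6.98 ± 0.09) were among the rest. Basp1 and Pebp1, an inhibitor of Raf kinase, had SDs of 0.018 and 0.013. By list, ribosomal protein genes passed in 39 of 39 cases (median percentile 99.5), respiratory chain genes in 24 of 24 (97.1) and glycolytic genes in 17 of 17 (96.1). The neuronal glucose transporter Slc2a3 was the lowest of the glycolysis list, at percentile 43.5.

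**Figure D3:**
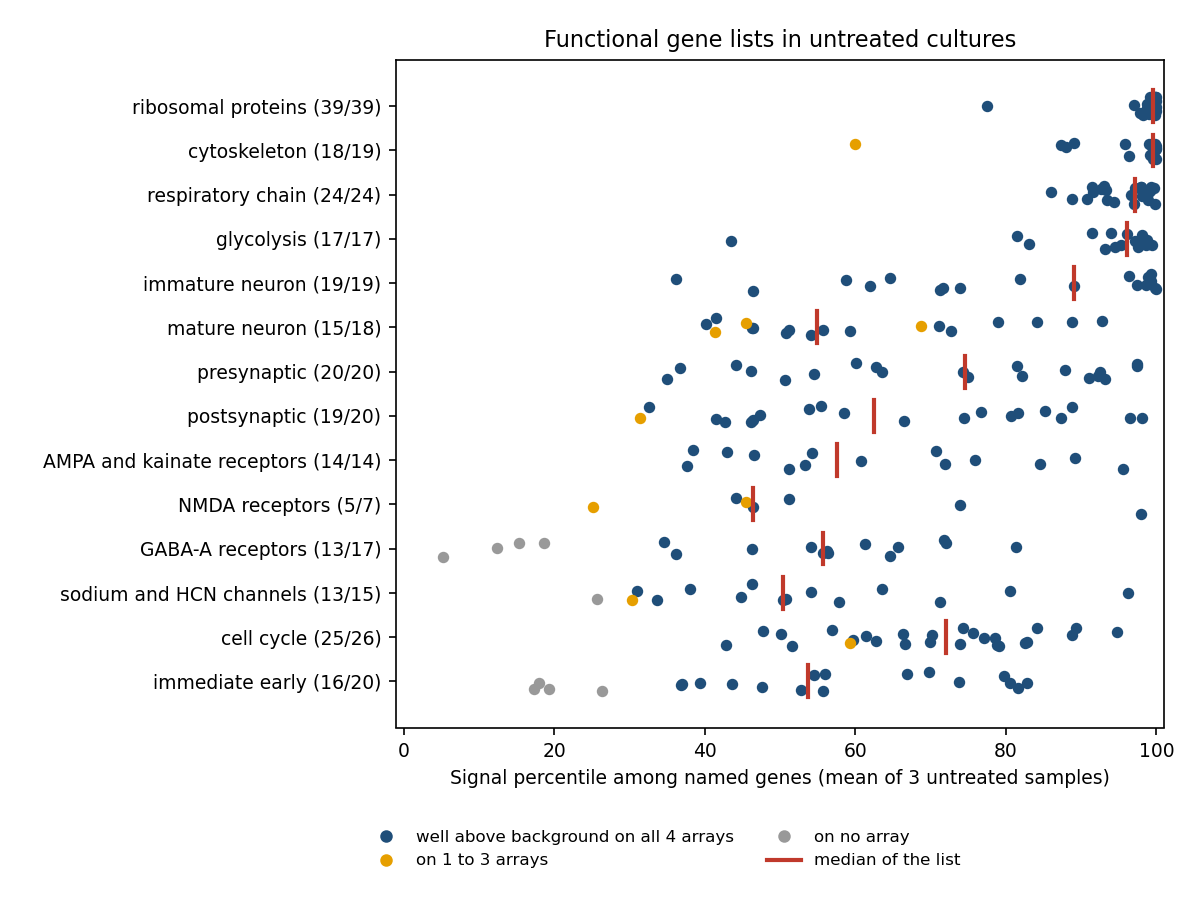
Signal percentile (horizontal axis, mean of 3 untreated samples) of each measured gene of 14 functional lists, with the same colours and median line as for the marker lists. The medians of immature and mature neuronal genes lie at 89.0 and 54.9.

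Proliferation genes were well above background in 25 of 26 cases (median percentile 72.1). Mki67, present only in dividing cells, had levels of 1.02, 0.92 and 0.79, and Cdk1, the mitotic kinase, 2.10, 1.82 and 1.93. The cultures thus carried mitotic transcripts in all 3 samples. For ribonucleotide reductase, the enzyme that hydroxyurea inhibits, the S-phase subunit Rrm2 was at 3.19, 3.06 and 2.78 (percentile 94.8, second probe -3.51), the large subunit Rrm1 at -4.26, -4.16 and -4.11 (percentile 42.9), and Rrm2b, the small subunit of non-dividing cells, was well above background on no array.

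Immediate early genes, which neurons switch on with activity, passed in 16 of 20 cases (median percentile 53.7). Jun (0.89, 1.01 and 0.94) and Nr4a3 (0.74, 0.60 and 0.45) were among the brighter ones, Arc was at -2.90, -2.69 and -2.58 and Fos at -4.78, -4.66 and -4.75, and Npas4, Egr3, Fosl1 and Ptgs2 passed on no array. Of the antioxidant genes 22 of 23 passed (median percentile 81.8). Gpx4, which reduces lipid peroxides, was at 5.72, 5.89 and 5.80, Sod1 at 4.80, 4.83 and 4.71 and catalase, Cat, at -2.92, -2.56 and -2.45, of which replicate 1 was at -3.28 on its first array and -2.56 on its repeat. Gclm, a subunit of the enzyme that starts glutathione synthesis, passed on no array. Of the genes linked to amyloid and tau 18 of 19 passed (median percentile 89.0), with Mapt, which encodes tau, at 6.19, 6.45 and 6.42, App at 1.90, 1.95 and 2.18 and the beta-secretase Bace1 at -4.88, -4.71 and -4.66. Among neurotrophin genes (14 of 15 passed, median percentile 50.3), the receptors Ntrk2 (2.88 ± 0.13) and Ntrk3 (2.95 ± 0.10) were bright, and Bdnf was at -3.94, -4.28 and -3.95.

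Over the 17553 probes well above background on all 4 arrays, 1 per named gene plus the unnamed ones, the untreated replicates correlated at Pearson r = 0.995 (replicates 1 and 2), 0.994 (1 and 3) and 0.996 (2 and 3). These correlations run across probes within an array, share the probes' brightness and are given as a description. The median absolute log2 difference was 0.151, 0.191 and 0.162 for the same pairs, and 248, 196 and 118 probes differed by over 2-fold. Among the 10744 named genes these were 133 (1.24%), 116 (1.08%) and 63 (0.586%). The median SD over the 3 samples was 0.148, or 0.143 with replicate 1 taken from its repeat array alone.

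The arrays of replicate 1, which carried RNA of the same sample on different slides, had a smaller median absolute difference than any pair of replicates, 0.108, but more probes past 2-fold, 374. Of these probes, 294 were brighter on the repeat array and 80 on the first. Among named genes 217 (2.02%) differed by over 2-fold, 192 (1.79%) in favour of the repeat array and 25 (0.233%) in favour of the first. Set against replicates 2 and 3, the repeat array correlated at 0.996 with each and had 155 and 86 probes past 2-fold, whereas the first array correlated at 0.989 and 0.988 and had 478 and 495.

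The 10 named genes that differed most between the arrays of replicate 1 were all lower on the first one. Tfe3, a transcription factor of lysosomal genes, was at -5.13 on the first array and 1.22 on the repeat, with 1.36 and 1.16 in replicates 2 and 3. Rps15, a ribosomal protein gene, was at 0.52, 5.84, 6.01 and 5.97 in that order, and the alpha tubulin Tuba1c at 2.47, 6.77, 7.07 and 7.11. In each case the first array stood alone and the other 3 lay together. Dipk1b, Kiaa1191, Ubald1, Akap17a, Ptn, Mark3 and Tmem50b made up the rest, with differences from -6.05 to -3.70 log2 units.

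Dim spots on the first array of replicate 1 lay mostly in one place. Of 42025 spots well above background on the other 3 arrays, 1498 were over 2-fold below the median of those arrays, and 1299 of them (86.7%) lay in rows 1 to 48 of 384, which hold 12.5% of such spots. In these rows 24.7% of spots were low, against 0.541% in the others. On the other untreated arrays between 76 and 116 spots were low in all (0.183% to 0.282%). Without these rows of the first array, a choice made after the map was seen, 47 probes differed by over 2-fold between the arrays of replicate 1 in place of 374 and their correlation was 0.998. Replicate 1 then differed from replicates 2 and 3 by over 2-fold in 110 and 63 probes in place of 248 and 196.

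**Figure D4:**
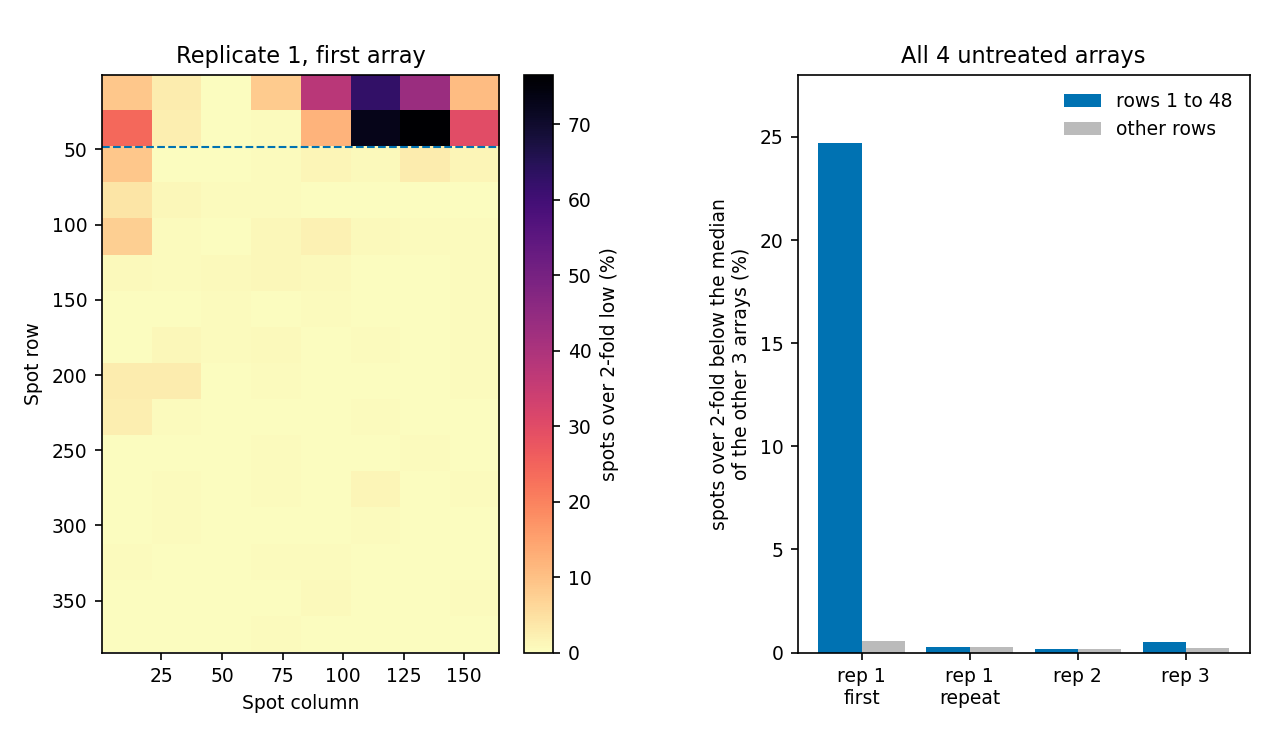
Left, share of spots over 2-fold below the median of the other 3 untreated arrays (colour, %) in blocks of the first array of replicate 1, by spot row and column, with a dashed line under row 48. Right, the same share (vertical axis, %) in rows 1 to 48 and in the other rows of each untreated array: 24.7% and 0.541% on the first array of replicate 1, and 0.499% or less on the others.

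Each slide held 2 untreated arrays, the first array of replicate 1 with replicate 2, and its repeat with replicate 3. Across the 17553 probes, the difference between slides within replicate 1 correlated with the difference between replicates 2 and 3 at r = 0.0371. No array enters both differences. The difference within replicate 1 includes the dim patch of its first array. Without rows 1 to 48 of that array the correlation was 0.0801, and with another background correction, normexp, it was 0.0940. Whether the slides differ was not tested.

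Of the 10 named genes with the largest SD over the 3 samples, 8 (Tfe3, Dipk1b, Ubald1, Rps15, Kiaa1191, Tuba1c, Akap17a and Mark3) also differed by over 2-fold between the arrays of replicate 1, and the others were Tex10 and Col3a1. With replicate 1 taken from its repeat array alone, a ranking added after the dim patch was seen, the 10 genes were Tex10, Col3a1, Pla2g7, Col1a1, Col18a1, Krt18, Folr1, Lgals3, Pcdhga3 and Pld2, and 0 of them differed by over 2-fold between the arrays of replicate 1. Col1a1, Col3a1 and Col18a1 encode collagens.

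The collagen genes were lowest in replicate 2 and highest in replicate 3. Col1a1, a chain of type I collagen made by fibroblasts, was at -1.29 and -1.16 on the arrays of replicate 1, -2.48 in replicate 2 and -0.38 in replicate 3. Col1a2, its partner chain, was at -0.92, -0.99, -1.80 and -0.08 in that order, and Col3a1, of type III collagen, at -2.73, -2.79, -4.20 and -1.95. The arrays of replicate 1 lay between the other samples and close to each other for all 3 genes. Because these genes were named for their spread, it is given without a test. Of the other fibroblast and pericyte genes, Dcn was at -1.10, -1.12 and -1.23, Fn1 at -1.0, -0.97 and -1.35, Pdgfrb at -1.0, -1.23 and -1.78 and Lum at -6.39, -6.03 and -5.82 in replicates 1 to 3. In this list 3 of the 12 genes well above background were over 2-fold higher in replicate 3 than in replicate 2 (0.14% over all named genes). They were Col1a1, Col1a2 and Col3a1, already named for their spread, so that this count adds nothing separate, and no other member passed 2-fold in this direction. With these 3 included, 7 of 12 were highest in replicate 3 (38.0% over all named genes).

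The promoter of Col1a2 is shown as that of a collagen gene whose signal was lowest in replicate 2 and highest in replicate 3. Col1a1 and Col3a1 had the same order, but the promoter reference used held no entry for them. It covers the 250 bases before the gene's start as annotated in RefSeq on GRCr8, chr4:33518307-33518556 on the plus strand. Whether transcription begins at that annotated start was not tested, so part of the stretch may be transcribed and the distances below hold for the annotation only. Capitals mark a CCAAT box on the minus strand, 221 to 217 bases before the start, and TATAAA on the plus strand, 170 to 165 bases before it.
Col1a2: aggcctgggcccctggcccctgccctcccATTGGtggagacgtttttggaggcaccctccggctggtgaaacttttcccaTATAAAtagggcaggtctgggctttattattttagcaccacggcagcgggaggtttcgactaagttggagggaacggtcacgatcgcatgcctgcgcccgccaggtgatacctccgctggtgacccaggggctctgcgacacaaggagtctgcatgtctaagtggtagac
CCAAT was present on either strand in 34% of 33469 RefSeq promoters of this length and TATAAA in 12.9%. A match describes the sequence and not a bound factor.

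Other genes ran the opposite way, with replicate 2 high. Ttr was at 1.37, 1.86, 3.36 and 2.26 on the 4 arrays in the order above, and of the other choroid plexus and ependymal genes that passed, Folr1 was at -4.89, -5.31, -3.65 and -3.48, Otx2 at -4.05, -4.23, -3.18 and -3.03 and Foxj1 at -1.67, -1.65, -1.19 and -1.64. Of these 4 genes, 2 were highest in replicate 2 and 2 in replicate 3, and their part in the Ttr difference was not tested. Pla2g7, a secreted phospholipase, was at -1.03, -1.22, 0.21 and -2.0, and Lgals3, a galectin of activated macrophages and glia, at -2.45, -2.31, -1.12 and -3.08. Replicate 2 was the highest and replicate 3 the lowest for Pla2g7 and Lgals3. Krt18, an epithelial keratin, was at -5.22, -5.07, -3.41 and -5.25, and Tspo, an outer mitochondrial membrane protein used as a marker of reactive glia, at -4.02, -4.03, -2.55 and -4.13, with replicate 2 standing apart from the other samples for both. Over all named genes 48 were over 2-fold higher in replicate 2 than in replicate 3 (0.447%) and 15 over 2-fold lower (0.14%).

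The differences of the collagen genes, Ttr and Lgals3 recurred in the treated samples with the same replicate numbers, which share no array with the untreated ones. The difference of replicate 3 from replicate 2 (log2) was 2.09 untreated and 2.52, 2.54, 2.22 and 1.02 at 2, 6, 12 and 24 h for Col1a1, 1.72 untreated and 2.17, 1.91, 1.75 and 0.68 at 2, 6, 12 and 24 h for Col1a2 and 2.24 untreated and 3.25, 2.65, 1.80 and 0.92 at 2, 6, 12 and 24 h for Col3a1. For Ttr it was -1.10 untreated and -2.02, -1.49, -1.42 and -1.26 at 2, 6, 12 and 24 h. For Lgals3 it was -1.97 untreated and -1.70, -1.96, -1.93 and -1.22 at 2, 6, 12 and 24 h. The sign was the same in all 5 groups for each of these genes. At 24 h Col1a1 was at -0.41, -2.77 and -1.75 in the samples labelled replicates 1, 2 and 3, so that there the sample labelled replicate 1 was the highest, as the plot by replicate number shows. Taking that sample in place of the one labelled replicate 3, the 24 h differences from replicate 2 were 2.36 for Col1a1, 1.92 for Col1a2, 2.46 for Col3a1, -1.46 for Ttr and -1.78 for Lgals3, with the same signs. For Folr1 and Otx2 the difference of replicate 3 from replicate 2 was small when untreated and did not recur. Folr1 had differences of 0.17 untreated and -0.80, -0.60, -0.073 and -1.47 at 2, 6, 12 and 24 h and Otx2 of 0.15 untreated and -0.43, -0.19, -0.34 and -0.46 at 2, 6, 12 and 24 h, with the opposite sign at all 4 treated times. In both genes replicate 1 was the lowest untreated sample, and it was again the lowest at 2, 6 and 12 h. There it was at -5.11, -4.92 and -4.81 for Folr1 and at -3.96, -4.17 and -4.21 for Otx2. At 24 h the sample labelled replicate 3 was the lowest for both, at -5.14 and -3.95. Of the 10 genes with the largest SD by the repeat array, 7 kept the sign of the replicate 3 minus replicate 2 difference at all 4 times. Col18a1 and Pcdhga3 kept it at 3 and Folr1 at 0.

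All 63 named genes that differed by over 2-fold between untreated replicates 2 and 3 were followed through the treated samples. The sign of the difference was the same in 88.9% of them at 2 h, 88.9% at 6 h, 87.3% at 12 h and 66.7% at 24 h, against 65.0%, 58.7%, 56.1% and 32.1% of the 10734 named genes measured on every array. It was the same at 2, 6 and 12 h in 49 (77.8%), against 29.0% of all, and at all 4 times in 39 (61.9%), against 13.5%. The 63 genes were picked for a large untreated difference, while most named genes differed little, so that their signs vary more easily. A higher share among the 63 was therefore likely in advance, and the shares are given as a description. At 12 h both replicates were hybridised on the same slide, while at 2 and 6 h replicate 2 was on slide 1 and replicate 3 on slide 2, as in the untreated group. At 24 h the layout was reversed, with replicate 2 on slide 2 and the sample labelled replicate 3 on slide 1. The share over all named genes was also lowest at 24 h, and the part of the slides in these shares was not tested. The 12 h value includes replicate 3 with its high spot variation, and the 24 h value the pair whose identity is not settled. Among these genes were RT1-CE2, RT1-CE16 and RT1-S3, class I histocompatibility genes of the rat, near-identical paralogs whose probes may not tell them apart, which were lower in replicate 3 than in replicate 2 in all 5 groups.

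**Figure D5:**
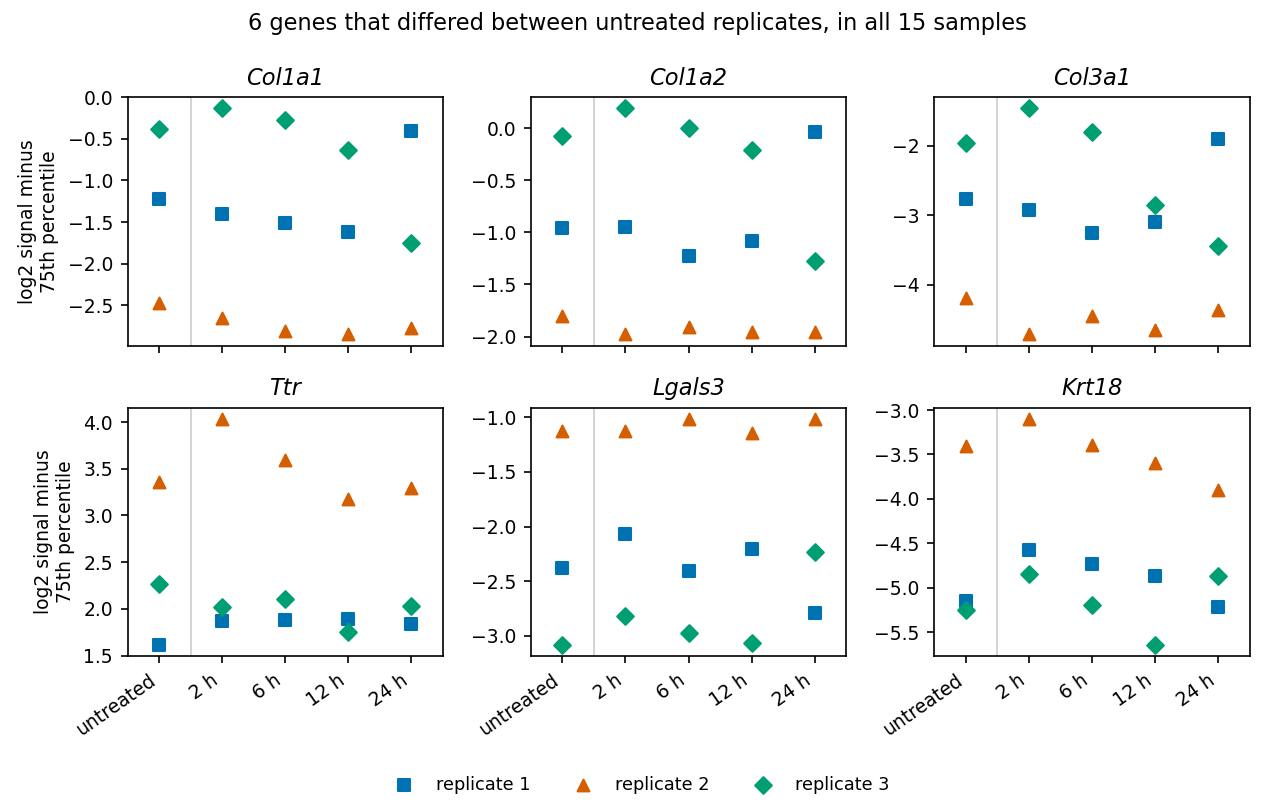
Level (log2 signal minus the array 75th percentile, vertical axis) of 6 genes in each of the 15 samples, by group (horizontal axis) and replicate number (symbol), with untreated replicate 1 the mean of its arrays. Replicate 2 is the lowest sample for the collagen genes and the highest for Ttr, Lgals3 and Krt18 in every group, and at 24 h replicate 1 lies above replicate 3 for the collagen genes.

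Other lists also leaned towards one untreated sample, by small amounts. Of the glycolytic genes 13 of 17 were highest in replicate 3, of the presynaptic genes 13 of 20 and of the postsynaptic genes 13 of 19, against 38.0% of all named genes, and none of these genes differed by over 2-fold between replicates 2 and 3. Their median differences of replicate 3 from replicate 2 were 0.18, 0.16 and 0.033 log2 units, against -0.012 over all named genes. Of the microglial genes 6 of 8 and of the endothelial genes 4 of 4 were highest in replicate 2 (30.1% of all named genes), with median differences of -0.23 and -0.23. Of the proliferation genes 17 of 25 were highest in replicate 1, against 31.8% of all named genes, with a median difference of 0.0937 log2 units from the mean of replicates 2 and 3. With replicate 1 taken from its repeat array alone, an alternative added after seeing the data, these were 12 of 25 against 26.7%, with a median difference of 0.0587. In the same way 13 glycolytic, 14 presynaptic and 13 postsynaptic genes were highest in replicate 3 (all named genes 40.0%), and 6 microglial and 4 endothelial genes in replicate 2 (all named genes 33.3%). Ribosomal protein genes had a median SD of 0.068, against 0.14 over all named genes. With 1 sample a side these are descriptions of 3 samples, and the part of cell type proportions in them was not tested.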

How the data were processed

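RNA (200 ng per array, Cy3, 1 colour) was measured on Agilent rat arrays (design 028279, build rn4 per the file headers, no coordinates used). Per the file headers, the deposited intensity values come from Feature Extraction 11.5.1.1 under protocol GE1_1105_Oct12, as background-subtracted processed signals not scaled between arrays. The series table deposited by the authors holds a score per spot, which was checked to be the standardized log of the processed signal of each array (r = 0.999996, largest difference 0.00501), and served as an alternative. Its column medians lay between -0.01 and 0.03 on the untreated arrays.

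Each array held 62976 spots, of which 4259 controls and outlier-flagged spots were left out, which left 30367 probes. The number of arrays and the signal over background limit the precision. Spots of a probe were averaged, and a probe counted as well above background if over 50% of its spots did. Values were log2 intensities, from the deposited processed signal, minus the array's 75th percentile. Probe accessions matched 18758 probes to 15715 symbols in a RefSeq table (GRCr8), and 11609 probes stayed unnamed. No groups were tested against each other: replicates were described by mean, SD and differences past 2-fold, with pandas 2.3.3 and numpy 2.4.6. Alternatives were normexp (limma 3.58.1 in R 4.3.3, offset 50, on median spot signals in place of the mean signals first planned), other scalings, filters, detection rules and probes, each array of replicate 1 alone, and leaving out each replicate.

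Named are the 8 markers, members of the gene lists, the 20 brightest genes, the 10 with the largest SD and the 10 with the largest difference between the arrays of replicate 1. Genes named for recurring differences, among them Ttr, Tspo, Col1a2 and the RT1 genes, and the ranking with the repeat array alone were chosen after their values were seen. The lists and the group itself were chosen with earlier results of these data known.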

Additional observations from a re-analysis of the deposited data

How the results depend on the processing

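No paired analysis was possible because no groups were compared by a test, so that there was no fit to which the replicate number could be added as a block; differences that recur by replicate number are described above. Of the alternative values for detection, lists, agreement and slides, 280 stayed within a set limit and 43 moved past it. The limit was the spread between replicates for list percentiles, the spread between pairs of replicates for agreement values, and 1.5 times for counts. For the slide correlation it was set by the number of probes alone. With normexp, 164 and 36 probes were past 2-fold between replicates 1 and 2 and between 2 and 3, the median SD was 0.125, the arrays of replicate 1 had r = 0.989 and a median absolute difference of 0.172, and the slide correlation was 0.0940. Without the filter on dim probes, 1461, 1258 and 1345 probes were past 2-fold for replicates 1 and 2, 1 and 3, and 2 and 3, r was 0.994 for the first pair and 0.993 for the third, the median SD was 0.193, and the arrays of replicate 1 had r = 0.989, 2275 probes past 2-fold and a median difference of 0.191. Calling spots by significance over background raised the erythroid count to 6.

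With the median over a gene's probes, median percentiles were 89.2 (pan-neuronal), 62.9 (glutamatergic), 78.8 (astrocyte), 50.8 (oligodendrocyte lineage), 30.5 (microglia) and 27.1 (erythroid), and Gad1, Olig2 and Aif1 were at -2.26, -1.30 and -5.69. From its first array alone, replicate 1 had r = 0.989 and 0.988 and 477 and 495 probes past 2-fold against replicates 2 and 3, and the endothelial percentile was 22.1. From its repeat array alone, r was 0.996 and 0.996, 104 probes were past 2-fold against replicate 3 among those well above background on the 3 arrays then used (86 among those well above it on all 4), and the glutamatergic and endothelial percentiles were 73.4 and 19.5. Scaling on detected probes alone subtracts a higher percentile from every probe, so it lowered all 8 marker levels by the same amount, Map2 to 0.73 and Gad1 to 0.37. Leaving out a replicate gave 0.107 to 0.135 for the median SD, 71.8 to 74.6 for the glutamatergic median percentile and 66.5 to 68.4 for the GABAergic median percentile. Leaving out rows 1 to 48 of the first array, an alternative added after seeing the data, gave r = 0.997 and 0.996 and 110 and 63 probes for replicate 1 against 2 and 3, r = 0.998 and 47 probes for its arrays, and a slide correlation of 0.0801. Except for these rows and the constant offset from scaling on detected probes, the cause of the shifts was not tested. Probes near background limit all counts of detected genes.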
